A study of Mus musculus with 27 samples.

Results

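The proteasome genes of cultured neonatal mouse microglia were followed across 3 immune stimuli and 2 genotype labels in bulk RNA sequencing. They were taken as the protein-coding genes whose symbol begins with Psma, Psmb, Psmc, Psmd, Psme, Psmf or Psmg and a digit. Of 50 such genes, 49 reached a normalised count of at least 10 in at least 3 of 27 libraries, out of 14668 genes that did so. The 49 comprised 5 interferon-inducible genes (Psmb8, Psmb9, Psmb10, Psme1 and Psme2), 32 constitutive subunits of the core and cap, and 12 others.

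The microglia came from cortices of neonatal mice, grew in mixed glial culture and were shaken off. Cells labelled CB2-/- came from strain B6.Cg-Cnr2tm1Zim, which carries a targeted allele of Cnr2, the gene of cannabinoid receptor 2. Cells labelled wild type came from C57BL/6J mice. Each label had 3 libraries per stimulus: LPS at 100 ng/ml with IFN-γ at 20 ng/ml, PolyI:C, and CpG at 1 nmol/ml, all for 16 h. LPS acts through TLR4 and IFN-γ through its own receptor, PolyI:C mimics double-stranded RNA sensed by TLR3, and CpG DNA acts through TLR9. Unstimulated cells gave 3 libraries labelled CB2-/- and 6 labelled wild type. Nothing in the labels says whether libraries of a group came from separate mice or cultures, so the p-values measure the spread between these libraries, which may be technical.

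The proteasome degrades proteins marked with ubiquitin. Its barrel-shaped 20S core stacks rings of α subunits, which gate the entry, and of β subunits, among them the catalytic subunits β1 (Psmb6), β2 (Psmb7) and β5 (Psmb5). The 19S cap, built of Psmc ATPases and Psmd subunits, binds ubiquitin chains and unfolds the substrate. Interferons induce replacement catalytic subunits, β1i (Psmb9), β2i (Psmb10) and β5i (Psmb8), which form the immunoproteasome, and the 11S activator PA28, made of PA28α (Psme1) and PA28β (Psme2). These shift the peptides produced for presentation on MHC class I. In microglia, the immune cells of the brain, the immunoproteasome is known as a product of inflammatory activation.

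Psmb8 and Psmb9 lie beside the peptide transporter gene Tap1 in the MHC region of chromosome 17 (GRCm38, gene models of GENCODE M21). Psmb9 spans chr17:34181987-34187764 on the minus strand, and Psmb8 spans chr17:34197721-34201454 on the plus strand. Psmb9 and Tap1 run in opposite directions and overlap by 212 bases. Tap1 and Psmb8 are 495 bases apart. The PA28 genes are also neighbours, Psme1 at chr14:55578123-55581529 on the plus strand and Psme2 at chr14:55587441-55591113 on the minus strand, 5911 bases apart. Psmb10 stands alone at chr8:105935735-105938444 on the minus strand. The library kits named in the labels do not mark strand, so reads in the overlap of Psmb9 and Tap1 cannot be told apart.

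Promoter windows of 250 bases before to 50 bases after the start were read from RefSeq (GRCm38.p6) for 41 of the 49 genes, 44 windows in all. They were searched on both strands for the core letters of 3 elements: the interferon-stimulated response element (ISRE, GAAANNGAAA), the gamma-activated site (GAS, TTCNNNGAA) and the antioxidant response element (ARE, TGACNNNGC), which binds NRF1 and NRF2, transcription factors that raise proteasome genes. ISRE letters stood in 5 of 44 windows (11.4%), those of Psmd4, Psmd9, Psmb3, Psmg4 and Psme1, against 3.44% of all 32851 windows. GAS letters stood in 3 windows (6.82%), those of Psmd2, Psmg1 and Psmb8, against 8.3% of all. ARE letters stood in 6 windows (13.6%), those of Psmd9, Psme4, Psmb6, Psmd12, Psmc6 and Psmb5, against 12.4% of all. A match describes letters and not a bound site, and the short patterns can arise without function.

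The windows of 3 inducible genes and of Psmb5, the constitutive partner of Psmb8, are printed because their expression is compared below. Each runs 5′ to 3′ on the gene's strand, with the matched element in capitals. The start is the RefSeq one and differs from the GENCODE gene ends given above. The windows of Psmb8, Psmb9 and Psme1 lie wholly within the GENCODE spans of those genes, so they are not upstream of those spans. Psmb8 holds GAS letters, starting 97 bases before the RefSeq start. Psmb9 holds none of the 3 elements in its window, which shares 275 bases with that of Tap1 on the other strand. Psme1 holds ISRE letters, read on the opposite strand, just after the start. Psmb5 holds ARE letters 47 bases before the start.
Psmb8, chr17:34197945-34198244, plus strand
Psmb8: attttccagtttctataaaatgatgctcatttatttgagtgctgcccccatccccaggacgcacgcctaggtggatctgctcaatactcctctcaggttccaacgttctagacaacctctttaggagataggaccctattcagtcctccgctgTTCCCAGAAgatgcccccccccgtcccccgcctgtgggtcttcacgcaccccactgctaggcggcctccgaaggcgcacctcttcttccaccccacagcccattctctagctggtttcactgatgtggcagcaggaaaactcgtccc
Psmb9, chr17:34187281-34187580, minus strand
Psmb9: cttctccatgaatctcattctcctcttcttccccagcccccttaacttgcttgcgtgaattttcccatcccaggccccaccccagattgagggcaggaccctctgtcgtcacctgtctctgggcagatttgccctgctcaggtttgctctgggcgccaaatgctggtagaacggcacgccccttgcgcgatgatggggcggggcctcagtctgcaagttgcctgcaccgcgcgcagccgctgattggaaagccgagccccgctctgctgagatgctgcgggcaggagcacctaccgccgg
Psme1, chr14:55578244-55578543, plus strand
Psme1: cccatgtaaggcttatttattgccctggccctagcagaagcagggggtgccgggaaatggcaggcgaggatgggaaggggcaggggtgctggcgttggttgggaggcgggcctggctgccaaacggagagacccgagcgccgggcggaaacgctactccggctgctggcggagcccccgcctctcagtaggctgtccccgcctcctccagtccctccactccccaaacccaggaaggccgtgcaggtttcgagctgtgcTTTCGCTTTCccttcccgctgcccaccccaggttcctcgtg
Psmb5, chr14:54617946-54618245, minus strand
Psmb5: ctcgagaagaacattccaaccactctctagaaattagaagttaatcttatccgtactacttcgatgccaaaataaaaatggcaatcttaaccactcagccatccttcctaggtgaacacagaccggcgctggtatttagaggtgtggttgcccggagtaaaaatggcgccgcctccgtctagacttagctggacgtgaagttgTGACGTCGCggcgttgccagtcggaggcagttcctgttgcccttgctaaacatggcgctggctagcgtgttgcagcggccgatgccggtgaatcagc

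Several features of the libraries bear on every comparison. Library numbers in the titles were taken as 2 series. All wild-type stimulated libraries and wild-type unstimulated replicates 1 to 3 have 3012 to 3023, the first series. The CB2-/- libraries have 2048 to 2059 and wild-type unstimulated replicates 4 to 6 have 2186 to 2188, together the second series. Each stimulus was therefore compared with unstimulated cells of its own label and series, and unstimulated genotypes were compared within the second series. For stimulated cells, genotype label and series cannot be told apart. In the second series the labels hold separate runs of numbers, so label and run cannot be told apart in unstimulated cells either. The targeted gene went against its label: Cnr2 had 217 to 454 normalised counts under the CB2-/- label and 0 to 233 under the wild-type label. Values per gene do not tell which stretch of Cnr2 is missing, so genotype rests on the labels here. The summed normalised count ran from 6.34e+06 to 1.42e+07, and the number of reads behind it is unknown. In the second series, 3 transcripts (Gm19220, Gm26822 and Grip2) took 0.0741 to 50.8% of a library's total, against at most 0.00453% in the first. All 15 microglia markers were detected in all 27 libraries, although P2ry12 fell as low as 2.41 and Tmem119 as low as 2.96. Markers of other cells were present to differing degrees: the highest normalised count in any library was 10.5 (S100b) to 1580 (Gfap) over 7 astrocyte genes, 28.6 (Lum) to 1425 (Col1a1) over 6 fibroblast genes, 3.64 (Mog) to 1782 (Cnp) over 7 oligodendrocyte genes, 7.21 (Rbfox3) to 71.7 (Tubb3) over 3 neuronal genes, and 158 (Cdh5) and 1269 (Pecam1) for 2 endothelial genes. Mog was at 0 in 22 libraries and Syt1 in 21, while Mbp, Cnp and Pecam1 were at 0 in none. The mean log2 level of the fibroblast list was 1.24 to 3.45 under the CB2-/- label and 0.85 to 7.49 under the wild-type label. In these bulk samples, fewer cells of a type and less RNA per cell cannot be told apart.

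The 5 inducible genes rose together after LPS plus IFN-γ and after PolyI:C under both labels, and the plot of inducible and partner subunits by library shows how cleanly the groups separated. After CpG they parted: Psme2 rose, Psmb8 rose by little, and Psmb9, Psmb10 and Psme1 fell in cells labelled wild type. Log2 fold changes below are those of limma on log2(normalised count + 1), with the standard error, and a gene is called changed at a Benjamini-Hochberg adjusted p under 0.05 over all 14668 genes. The 3 stimuli of a label share its unstimulated libraries.

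**Figure D1:**
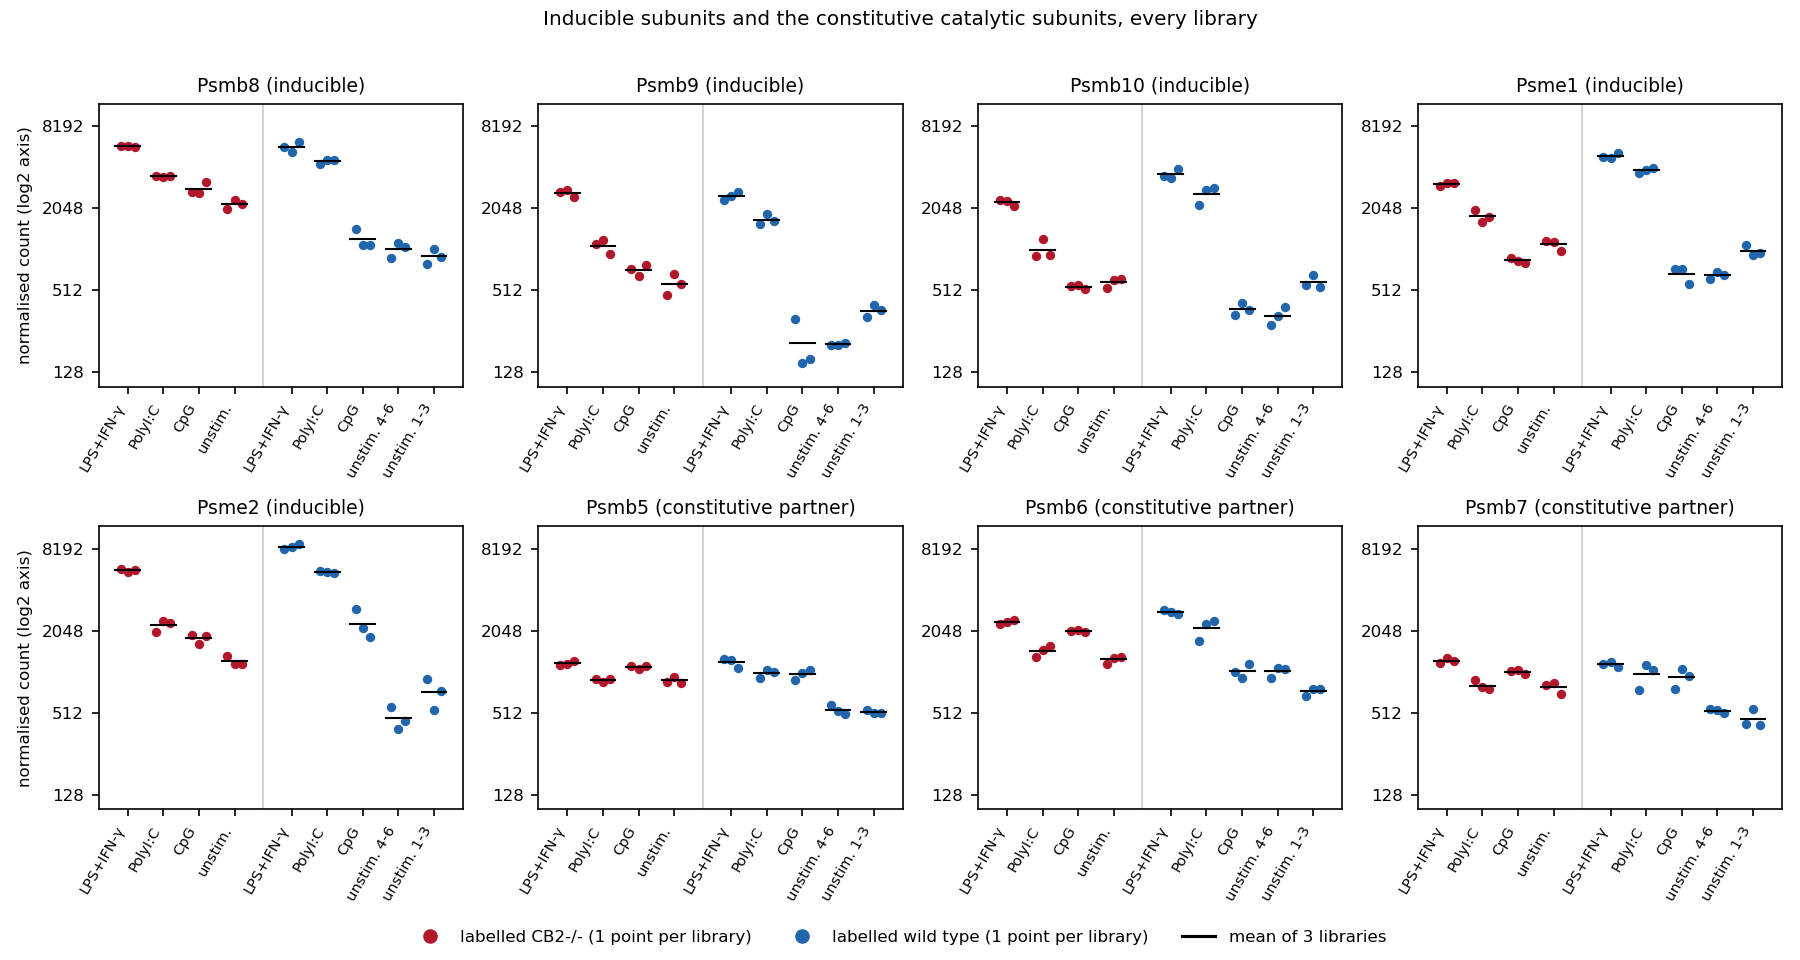
Normalised count per library (points, log2 axis) of 5 inducible genes and the 3 constitutive catalytic subunits, by stimulus, with libraries labelled CB2-/- in red left of those labelled wild type in blue; bars are means of 3 libraries, and wild-type unstimulated replicates 4 to 6 stand left of 1 to 3. Psmb9 sits at 2454 to 2803 after LPS plus IFN-γ in libraries labelled CB2-/- and at 150.1 to 316 after CpG in libraries labelled wild type.

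Psmb8 encodes β5i, the chymotrypsin-like catalytic subunit of the immunoproteasome. Under the CB2-/- label, it had 5840.5, 5873 and 5798 normalised counts after LPS plus IFN-γ, 3536, 3458 and 3518 after PolyI:C, 2695, 2664 and 3165 after CpG, and 2023, 2336 and 2209 unstimulated. The libraries labelled wild type had 5746, 5267 and 6319 after LPS plus IFN-γ, 4349.6, 4628 and 4665 after PolyI:C, 1432, 1095 and 1096 after CpG, and 794, 1029 and 889.9 in unstimulated replicates 1 to 3. Libraries after LPS plus IFN-γ overlapped between labels, while CpG and unstimulated libraries were higher, and PolyI:C libraries lower, under the CB2-/- label. The log2 fold change after LPS plus IFN-γ was 1.42 ± 0.12 in cells labelled CB2-/- (SE, n = 3, limma adjusted p = 1.09e-09) and 2.68 ± 0.12 in cells labelled wild type (limma adjusted p = 3.04e-15). After PolyI:C it was 0.68 (limma adjusted p = 0.000385) under the CB2-/- label and 2.34 (limma adjusted p = 3.84e-14) under the wild-type label. The CpG changes were small, 0.37 under the CB2-/- label and 0.41 under the wild-type label, with limma adjusted p-values of 0.0304 and 0.00705. The wild-type CpG call was lost without CpG replicate 1 (0.28, limma adjusted p = 0.0638) and without unstimulated replicate 1 (0.32, limma adjusted p = 0.0540). It was 0.12 in the batch-corrected table (limma adjusted p = 0.121), and its limma adjusted p was 0.126 when only the compared libraries were fitted.

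Psmb9 encodes β1i, which takes the place of the caspase-like subunit β1. With the CB2-/- label it had 2696, 2803 and 2454 normalised counts after LPS plus IFN-γ, 1118, 1190.1 and 939 after PolyI:C, 733, 646 and 784 after CpG, and 469, 668 and 572 unstimulated. With the wild-type label it had 2343, 2502 and 2693 after LPS plus IFN-γ, 1563, 1854 and 1646 after PolyI:C, 316, 150.1 and 160.4 after CpG, and 327, 395 and 364 in unstimulated replicates 1 to 3. All 3 wild-type CpG libraries lay below all 3 unstimulated ones, with replicate 1 close to them. Psmb9 rose by 2.23 ± 0.19 on the log2 scale after LPS plus IFN-γ under the CB2-/- label (limma adjusted p = 1.41e-09) and by 2.79 ± 0.19 under the wild-type label (limma adjusted p = 8.63e-12). PolyI:C gave rises of 0.93 under the CB2-/- label and 2.22 under the wild-type label, with limma adjusted p-values of 0.00175 and 5.54e-10. After CpG it was 0.35 higher without passing the test under the CB2-/- label (limma adjusted p = 0.271) and fell by 0.87 under the wild-type label (limma adjusted p = 0.000612). The wild-type fall was not called when only the compared libraries were fitted (limma adjusted p = 0.101).

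Psmb10 encodes β2i, the replacement for the trypsin-like subunit β2. In cells labelled CB2-/-, it had 2357, 2307 and 2120.3 normalised counts after LPS plus IFN-γ, 916, 1209 and 922 after PolyI:C, 548, 557 and 518 after CpG, and 534, 612 and 615 unstimulated. In cells labelled wild type, it had 3512, 3398 and 4002 after LPS plus IFN-γ, 2159.8, 2768 and 2861 after PolyI:C, 336, 411 and 366 after CpG, and 559.5, 660.2 and 536 in unstimulated replicates 1 to 3. CpG libraries overlapped the unstimulated ones under the CB2-/- label and lay below them under the wild-type label. The log2 rise after LPS plus IFN-γ was 1.95 ± 0.13 under the CB2-/- label and 2.64 ± 0.13 under the wild-type label, with limma adjusted p-values of 5.06e-11 and 4.96e-14. After PolyI:C the rises were 0.78 under the CB2-/- label and 2.14 under the wild-type label, with limma adjusted p-values of 0.000365 and 2.25e-12. After CpG the log2 change was -0.11 under the CB2-/- label (limma adjusted p = 0.702) and -0.65 under the wild-type label (limma adjusted p = 0.000369).

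Psme1 and Psme2 encode the subunits that assemble into PA28, a ring that opens the core without ATP or ubiquitin. Under the CB2-/- label, Psme1 had 2976, 3125 and 3121 normalised counts after LPS plus IFN-γ, 2000.1, 1617 and 1752 after PolyI:C, 888, 838 and 808 after CpG, and 1172, 1164 and 994 unstimulated. The libraries labelled wild type had 4873, 4817 and 5181 after LPS plus IFN-γ, 3683, 3937 and 4045 after PolyI:C, 727, 729 and 571 after CpG, and 1103, 925 and 953 in unstimulated replicates 1 to 3. Psme1 thus moved in opposite directions, up with LPS plus IFN-γ and PolyI:C and down with CpG, with no overlap of stimulated and unstimulated libraries under either label. The log2 changes under the CB2-/- label were 1.47 ± 0.10 after LPS plus IFN-γ, 0.69 after PolyI:C and -0.39 after CpG, with limma adjusted p-values of 8.59e-11, 8.91e-05 and 0.01. Under the wild-type label they were 2.32 ± 0.10, 1.97 and -0.56 in the same order of stimuli, with limma adjusted p-values of 5.12e-15, 1.06e-13 and 0.000133.

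The partner gene Psme2 rose with all 3 stimuli under both labels. With the CB2-/- label Psme2 had 5822, 5544 and 5755 normalised counts after LPS plus IFN-γ, 2009, 2409.5 and 2327 after PolyI:C, 1920.5, 1632 and 1862 after CpG, and 1327, 1168 and 1163 unstimulated. With the wild-type label it had 8236, 8416 and 8933 after LPS plus IFN-γ, 5614, 5517 and 5481 after PolyI:C, 2956, 2143 and 1859.8 after CpG, and 914, 539 and 746 in unstimulated replicates 1 to 3. Stimulated and unstimulated libraries did not overlap for any of the 3 stimuli. The log2 rise after LPS plus IFN-γ was 2.23 ± 0.16 under the CB2-/- label and 3.57 ± 0.16 under the wild-type label, with limma adjusted p-values of 1.4e-10 and 6.4e-15. PolyI:C gave 0.88 under the CB2-/- label and 2.95 under the wild-type label, with limma adjusted p-values of 0.000744 and 2.26e-13. CpG gave 0.56 under the CB2-/- label and 1.67 under the wild-type label, with limma adjusted p-values of 0.0173 and 1.18e-08. The log2 ratio of Psme1 to Psme2 changed by -2.23 after CpG under the wild-type label, with no overlap of libraries, so the PA28 partners parted most there among the 3 stimuli.

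Some CpG calls among the inducible genes depended on the fit. In cells labelled wild type, the falls of Psmb9, Psmb10 and Psme1 were smaller without the series term, when all 6 unstimulated libraries served as the comparison (log2 changes of -0.46, -0.24 and -0.26, limma adjusted p = 0.098, 0.328 and 0.149). In cells labelled CB2-/-, the CpG call of Psmb8 was lost without CpG replicate 3 or without unstimulated replicate 1 or 3, that of Psme1 without CpG replicate 3 or unstimulated replicate 1 or 2, and that of Psme2 without CpG replicate 1 or 3 or unstimulated replicate 2 or 3. Over those leave-outs the log2 changes were 0.29 to 0.38 for Psmb8, -0.36 to -0.35 for Psme1 and 0.52 to 0.54 for Psme2.

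Against the inducible genes stand their constitutive partners. The log2 ratio of each inducible catalytic subunit to its partner does not depend on library scaling, and only its change between groups is read here, since the counts are not per length. Psmb8 over Psmb5 changed by 1.00 after LPS plus IFN-γ and 0.66 after PolyI:C under the CB2-/- label, and by 1.47 and 1.40 under the wild-type label. Psmb9 over Psmb6 changed by 1.32 and 0.73 under the CB2-/- label and by 0.86 and 0.69 under the wild-type label. Psmb10 over Psmb7 changed by 1.30 and 0.74 under the CB2-/- label and by 1.29 and 1.07 under the wild-type label. All 12 changes were toward the inducible transcript, and stimulated and unstimulated libraries did not overlap. The comparisons of a label share its unstimulated libraries. How often other pairs of genes separate in this way was not counted. CpG did the reverse for β1i and β2i: Psmb9 over Psmb6 changed by -0.35 under the CB2-/- label and -1.35 under the wild-type label, and Psmb10 over Psmb7 by -0.49 and -1.66. Psmb8 over Psmb5 overlapped between CpG and unstimulated libraries under both labels. Between unstimulated wild-type replicates 4 to 6 and 1 to 3, with no stimulus, Psmb9 over Psmb6 differed by -1.30 and Psmb10 over Psmb7 by -1.03. Psmb9 over Psmb6 averaged -2.38 ± 0.61 after CpG under the wild-type label, against -2.33 ± 0.13 in unstimulated replicates 4 to 6 and -1.03 ± 0.06 in replicates 1 to 3 (SD, n = 3 each).

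The mean log2 level of the 5 inducible genes minus that of the 32 constitutive subunits gives the same contrast in a single value per library. It averaged 1.81 ± 0.04 after LPS plus IFN-γ, 1.27 ± 0.12 after PolyI:C, 0.25 ± 0.09 after CpG and 0.41 ± 0.06 unstimulated in libraries labelled CB2-/- (SD, n = 3 each). In libraries labelled wild type it averaged 2.12 ± 0.10 after LPS plus IFN-γ, 1.78 ± 0.06 after PolyI:C, -0.43 ± 0.17 after CpG and 0.48 ± 0.09 in unstimulated replicates 1 to 3. Stimulated and unstimulated libraries did not overlap for any stimulus, and CpG was the stimulus that lay below its unstimulated cells under both labels. Taken as a median over members, the change under the CB2-/- label was 0.89 after LPS plus IFN-γ, against 1.40 from the means, and -0.77 after CpG, against -0.16 from the means. The value carries no test, because the members were chosen with results known.

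**Figure D2:**
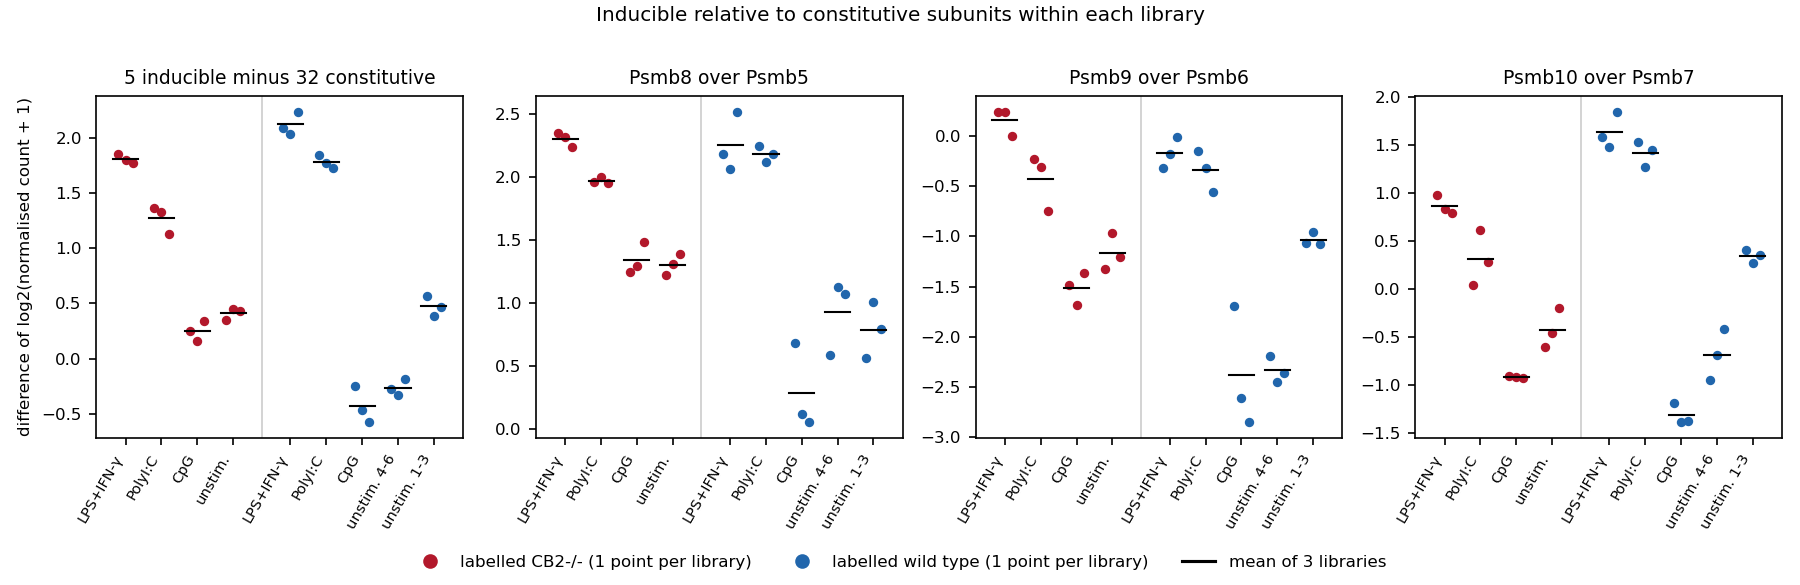
Inducible minus constitutive mean log2 level and the log2 ratios Psmb8/Psmb5, Psmb9/Psmb6 and Psmb10/Psmb7 in each library (points), libraries labelled CB2-/- in red left of those labelled wild type in blue; bars are means of 3. The mean difference lies at 1.81 after LPS plus IFN-γ under the CB2-/- label and at -0.43 after CpG under the wild-type label.

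The constitutive catalytic subunits were not flat themselves. In cells labelled CB2-/-, Psmb6 had 2288, 2373 and 2461 normalised counts after LPS plus IFN-γ, 1311, 1477 and 1576 after PolyI:C, 2048, 2083 and 2019 after CpG, and 1174, 1304 and 1317 unstimulated. In cells labelled wild type, it had 2916, 2837 and 2719.6 after LPS plus IFN-γ, 1729.6, 2316 and 2429 after PolyI:C, 1019.8, 922 and 1159.9 after CpG, and 685, 768 and 769 in unstimulated replicates 1 to 3. Psmb6 rose in all of these comparisons except PolyI:C under the CB2-/- label, where its libraries overlapped the unstimulated ones at 1311 against 1317. Its log2 changes under the CB2-/- label were 0.91 after LPS plus IFN-γ, 0.20 after PolyI:C and 0.70 after CpG, with limma adjusted p-values of 9.41e-07, 0.336 and 6.69e-05. With the wild-type label they were 1.93, 1.53 and 0.48 in the same order, with limma adjusted p-values of 7.92e-13, 5.78e-11 and 0.00172. The CpG rise was 0.24 and not called without the series term (limma adjusted p = 0.163).

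Psmb5 and Psmb7 gave a like picture. Psmb5 rose by 0.42 after LPS plus IFN-γ and 0.34 after CpG under the CB2-/- label, with 0.02 after PolyI:C (limma adjusted p = 0.000977, 0.0111 and 0.954). With quantile scaling the rises were 0.23 and 0.27 and no longer called, and the CpG call was also lost without unstimulated replicate 3. Under the wild-type label it rose by 1.21, 0.92 and 0.94 after LPS plus IFN-γ, CpG and PolyI:C (limma adjusted p = 6.68e-11, 1.56e-08 and 6.05e-09). Its levels were 1144 to 1228 after LPS plus IFN-γ and 843 to 942 unstimulated under the CB2-/- label, and 1100.0 to 1264 and 511 to 537 under the wild-type label. Psmb7 rose by 0.65 after LPS plus IFN-γ under the CB2-/- label (limma adjusted p = 0.000978), and its changes of 0.04 after PolyI:C and 0.38 after CpG did not pass the test. With the wild-type label Psmb7 rose by 1.34, 1.07 and 1.01 after LPS plus IFN-γ, PolyI:C and CpG (limma adjusted p = 2.19e-08, 8.4e-07 and 3.16e-06).

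Over the whole module, stimulation raised most members in cells labelled wild type and fewer in cells labelled CB2-/-. After LPS plus IFN-γ, 35 of 49 rose and 3 fell under the CB2-/- label, where 12.8% of all genes tested rose and 10.9% fell, 23.7% in all. The wild-type label had 41 rising and 0 falling in limma (1 lower at an unadjusted p under 0.05), against 21.7% and 18% of all genes. An alternative chosen after seeing the data left out the libraries in which 3 transcripts took over 10% of the total. With it 12 members were called in either direction after CpG under the CB2-/- label, with fewer libraries. After LPS plus IFN-γ replicate 1 alone remained under that label, so the count there is not given. The members' median log2 change was 0.59 under the CB2-/- label and 1.16 under the wild-type label, beside medians over all genes of 0.03 and 0.05. After CpG, 19 rose and 2 fell under the CB2-/- label, against 6.82% and 7.44% of all genes (14.3% in all), and 36 rose and 4 fell under the wild-type label, against 16.5% and 19.6% (36% in all). The medians after CpG were 0.31 and 0.83, and the all-gene medians were 0.00 and -0.09.

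PolyI:C gave the widest gap in counts between the labels. Under the CB2-/- label, the 5 inducible genes were the 5 members that rose, while Psmd1 and Psma1 fell, against 5.11% of all genes higher and 3.44% lower. That was 8.55% of all genes in either direction. The 32 constitutive subunits had a median log2 change of 0.00 there, with 0 rising and 2 falling in limma, and 2 higher and 4 lower at an unadjusted p under 0.05. The call of Psma1 was lost without PolyI:C replicate 1 or 2 or unstimulated replicate 1 or 2. The calls of Psma1, Psmb9 and Psmd1 were lost without the libraries in which 3 transcripts took over 10% of the total (limma adjusted p = 0.0760, 0.0739 and 0.0737). In the wild-type libraries, 38 members rose and 0 fell after PolyI:C in limma (40 and 0 at an unadjusted p under 0.05), against 21.2% and 19.9% of all genes, and 30 of the 32 constitutive subunits rose with a median of 1.01. The all-gene medians were 0.01 under the CB2-/- label and -0.06 under the wild-type label.

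**Figure D3:**
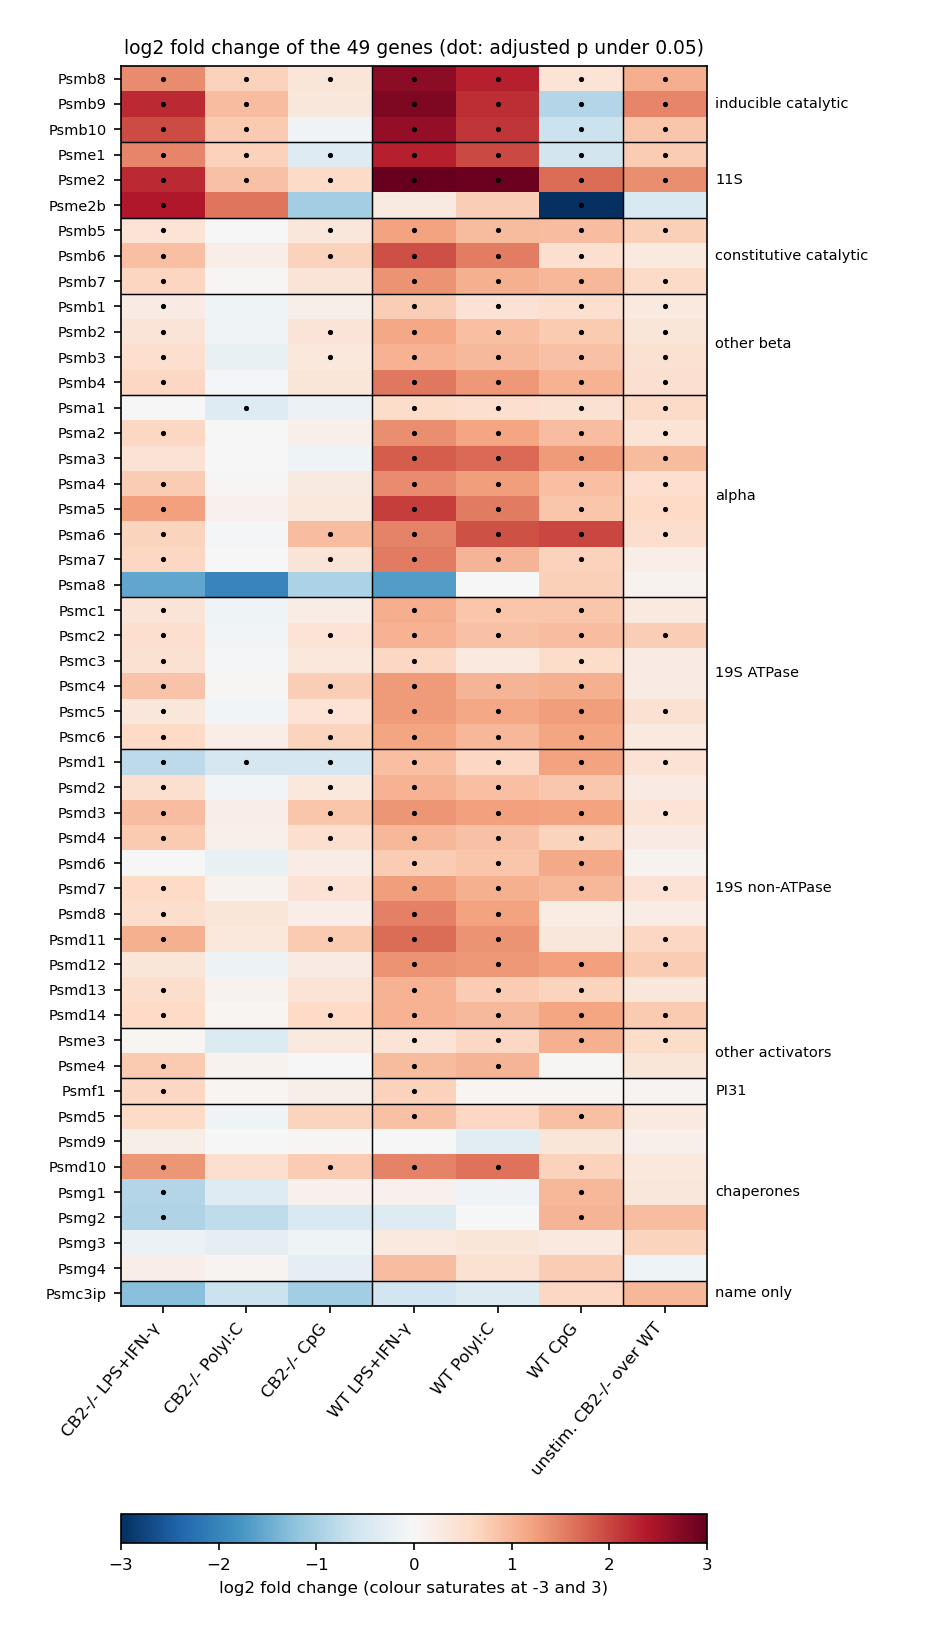
Log2 fold change of each of the 49 genes (rows, grouped by role) in 7 comparisons (columns), the 3 stimuli under the CB2-/- label, the 3 under the wild-type label, and unstimulated cells labelled CB2-/- over wild type; dots mark a limma adjusted p under 0.05 and colours saturate at 3 in either direction. Dots fill most of the wild-type columns and 7 rows of the CB2-/- PolyI:C column.

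Among the α subunits, which form the outer rings and their gate, Psma6 had the largest CpG response. Under the CB2-/- label, Psma6 had 1682, 1758 and 1651 normalised counts after LPS plus IFN-γ, 986, 955 and 1137 after PolyI:C, 2104, 2017 and 1919 after CpG, and 1038, 1092 and 1055 unstimulated. The libraries labelled wild type had 1930.0, 2007 and 1951 after LPS plus IFN-γ, 2499, 2654 and 2789 after PolyI:C, 3145, 2826 and 2549 after CpG, and 605, 816 and 692 in unstimulated replicates 1 to 3. CpG libraries were thus the highest of Psma6 under the CB2-/- label, and PolyI:C libraries overlapped the unstimulated ones there. The log2 changes were 0.68, -0.05 and 0.92 after LPS plus IFN-γ, PolyI:C and CpG under the CB2-/- label, with limma adjusted p-values of 1.02e-05, 0.834 and 1.69e-07. Under the wild-type label they were 1.49, 1.92 and 2.02, with limma adjusted p-values of 8.57e-12, 7.46e-14 and 8.98e-14.

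Other α subunits had other orders. Psma5 had its highest counts after LPS plus IFN-γ, at 1506 to 1648 under the CB2-/- label against 638 to 756 unstimulated, and at 1907 to 2074 under the wild-type label against 373 to 559.8. Its log2 rises were 1.23 under the CB2-/- label (limma adjusted p = 3.32e-08) and 2.07 under the wild-type label (limma adjusted p = 1.19e-12). Psma3 rose with all 3 stimuli under the wild-type label, by 1.82, 1.70 and 1.28 after LPS plus IFN-γ, PolyI:C and CpG. Its CB2-/- changes were 0.43, 0.02 and -0.14, and none passed the test. Of the 8 α genes, 5 rose after LPS plus IFN-γ, 0 after PolyI:C and 2 after CpG under the CB2-/- label, where 12.8%, 5.11% and 6.82% of all genes rose, against 7 after each stimulus under the wild-type label, where 21.7%, 21.2% and 16.5% did. The PolyI:C count of 0 was also 0 at an unadjusted p under 0.05 in limma. Psma1 fell by 0.38 after PolyI:C under the CB2-/- label (limma adjusted p = 0.023) and had the smallest wild-type rise after CpG of the α genes, 0.45.

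The structural β subunits Psmb1, Psmb2, Psmb3 and Psmb4, which have no catalytic site in mammals, all rose after LPS plus IFN-γ under both labels. Over all genes, 12.8% rose under the CB2-/- label and 21.7% under the wild-type label. Their median log2 rise was 0.44 under the CB2-/- label and 1.11 under the wild-type label. Psmb4 had the largest wild-type rise of the 4, 1.57 (limma adjusted p = 1.7e-10), and Psmb1 the smallest, 0.74 (limma adjusted p = 1.3e-07). The same 2 genes under the CB2-/- label rose by 0.63 and 0.25. None of the 4 passed the test after PolyI:C under the CB2-/- label, where their median was -0.12 and 8.55% of all genes were called in either direction.

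Most genes of the 19S cap rose after LPS plus IFN-γ and after CpG under both labels, and after PolyI:C under the wild-type label. All 6 ATPase genes, Psmc1 to Psmc6, which encode the ring that unfolds substrates, rose after LPS plus IFN-γ under both labels, with a median of 0.47 under the CB2-/- label and 1.14 under the wild-type label. Over all genes, 12.8% rose under the CB2-/- label and 21.7% under the wild-type label. After CpG, 4 of the 6 rose under the CB2-/- label and all 6 under the wild-type label, against 6.82% and 16.5% of all genes. Of the 11 non-ATPase genes, 6 rose and 1 fell after CpG under the CB2-/- label, where 7.44% of all genes fell. Under the wild-type label 9 of them rose. After PolyI:C, 0 of 6 ATPase and 0 of 11 non-ATPase genes rose and 1 fell under the CB2-/- label in limma (0 and 2 higher at an unadjusted p under 0.05), against 5.11% higher and 3.44% lower over all genes, while 5 and 11 rose under the wild-type label, against 21.2%. Psmc5 had the largest wild-type CpG rise of them, 1.25 (limma adjusted p = 2.8e-10), beside 0.40 under the CB2-/- label (limma adjusted p = 0.0048). Of the 11 non-ATPase subunits, 8 rose and 1 fell after LPS plus IFN-γ under the CB2-/- label, against 12.8% and 10.9% of all genes. Under the wild-type label 11 rose, against 21.7%. Psmd11, a lid subunit, rose by 1.08 under the CB2-/- label and 1.68 under the wild-type label, with 1269 to 1499 normalised counts after LPS plus IFN-γ against 614 to 684 unstimulated under the CB2-/- label. Psmd3, a scaffold of the lid, rose by 0.84 after CpG under the CB2-/- label (limma adjusted p = 7e-06) and by 1.20 under the wild-type label (limma adjusted p = 1.1e-08).

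Psmd1, the large base subunit Rpn2, was the exception, with opposite directions under the 2 labels. With the CB2-/- label it had 1005, 941 and 1162 normalised counts after LPS plus IFN-γ, 1225, 1174 and 1408 after PolyI:C, 1289, 1218 and 1255 after CpG, and 1759, 1807 and 1796 unstimulated. With the wild-type label it had 1239.6, 1265 and 1211 after LPS plus IFN-γ, 906, 1112 and 1038 after PolyI:C, 1572, 1472 and 1564 after CpG, and 619, 788 and 602 in unstimulated replicates 1 to 3. All stimulated libraries lay below the unstimulated ones under the CB2-/- label and above them under the wild-type label. The log2 changes were -0.79, -0.50 and -0.51 after LPS plus IFN-γ, PolyI:C and CpG under the CB2-/- label, with limma adjusted p-values of 1.36e-05, 0.00807 and 0.00333. With the wild-type label they were 0.90, 0.61 and 1.21, with limma adjusted p-values of 1.07e-06, 0.000172 and 1.49e-08. Unstimulated wild-type replicates 4 to 6, of the second library series, had 1433, 1501 and 1099, which is 1.00 higher on the log2 scale than replicates 1 to 3 (limma adjusted p = 2.07e-06). The difference of Psmd1 between library series was thus within the size range of its wild-type stimulus changes, and label and series cannot be told apart here. Without the series term its falls after PolyI:C and CpG under the CB2-/- label did not pass the test (limma adjusted p = 0.268 and 0.206).

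The other activators have other jobs. Psme3 encodes PA28γ, a nuclear activator, and Psme4 encodes PA200, which acts in spermatogenesis and DNA repair. Psme3 rose by 0.42, 0.61 and 1.06 after LPS plus IFN-γ, PolyI:C and CpG under the wild-type label (limma adjusted p = 0.045, 0.0039 and 1.4e-05). The LPS plus IFN-γ call was lost without either of the stimulated replicates 1 and 2 or without any 1 of unstimulated replicates 1 to 3 (0.36 to 0.44). Its changes of 0.05, -0.42 and 0.29 under the CB2-/- label did not pass the test. Its wild-type CpG libraries had 1219, 802 and 958 normalised counts, against 485, 478 and 447 unstimulated. Psme4 rose after LPS plus IFN-γ under both labels, by 0.77 under the CB2-/- label and 0.95 under the wild-type label (limma adjusted p = 0.00064 and 3.2e-05). After PolyI:C it rose by 1.02 under the wild-type label, and its change of 0.10 under the CB2-/- label did not pass the test. The CpG changes of Psme4 were 0.01 and 0.03. The inhibitor gene Psmf1 (PI31) rose after LPS plus IFN-γ, by 0.63 under the CB2-/- label and 0.68 under the wild-type label (limma adjusted p = 0.027 and 0.01).

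The assembly chaperone genes differed among themselves. Of 7 chaperone genes (Psmg1 to Psmg4 for the core, Psmd5, Psmd9 and Psmd10 for the cap), 1 rose and 2 fell after LPS plus IFN-γ under the CB2-/- label, against 12.8% and 10.9% of all genes, and 2 rose under the wild-type label, against 21.7%. After CpG, 1 rose under the CB2-/- label, against 6.82% of all genes, and 4 rose under the wild-type label, against 16.5%, with medians of 0.03 and 0.77. Psmd10, which encodes gankyrin, was the one that rose under both: it had 567, 516 and 589 normalised counts after LPS plus IFN-γ against 223, 250.4 and 194 unstimulated under the CB2-/- label, and 557, 548 and 534 against 181, 216 and 190.5 under the wild-type label. Its log2 rises were 1.33 and 1.48 (limma adjusted p = 1.35e-06 and 1.08e-07). Psmg1 and Psmg2, whose products pair to start the α ring, were 67.1, 35.2 and 41.3 and 74.5, 46.4 and 47.6 after LPS plus IFN-γ under the CB2-/- label, against 76.4, 82.6 and 97.5 and 106, 100.4 and 102 unstimulated. They fell by 0.87 and 0.89 there (limma adjusted p = 0.0458 and 0.0468), near the threshold, and lost the call when LPS plus IFN-γ replicate 2 or 3 or any single unstimulated library of that label was left out (log2 changes of -0.95 to -0.68). They rose by 1.01 and 1.03 after CpG under the wild-type label (limma adjusted p = 0.0139 and 0.0147).

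Genes with low or uncertain counts are named for completeness. Psmb11, the thymus-specific β5t, reached 7.32 at most and was the gene that did not pass the filter. Just inside it were Psma8, the testis-specific α4s, with 0 to 29.1 normalised counts and at least 10 in 9 libraries, and Psmc3ip, with 0 to 28.8 and at least 10 in 11 libraries. Psmc3ip is a meiotic recombination factor that shares the name but is not a subunit. Psme2b, on chromosome 11, is named as a copy of Psme2, with which it could share reads, so its values are uncertain. It had 171, 159 and 77.5 after LPS plus IFN-γ against 25.4, 23.1 and 22.4 unstimulated under the CB2-/- label (log2 change 2.39, limma adjusted p = 0.0384, lost without LPS plus IFN-γ replicate 1 or 2 or any single unstimulated library), and 0, 8.23 and 21.4 after CpG against 169, 84.1 and 121 unstimulated under the wild-type label (log2 change -4.35, limma adjusted p = 0.000197). In that wild-type CpG comparison Psme2 itself rose.

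The stimuli were also compared with each other. Under the CB2-/- label, 32 members were higher and 0 lower after LPS plus IFN-γ than after PolyI:C in limma (37 and 1 at an unadjusted p under 0.05), against 6.95% and 4.96% of all genes, and under the wild-type label 7 were higher and 1 lower, against 5.35% and 3.91%. Psmb10 was 1.16 higher after LPS plus IFN-γ than after PolyI:C under the CB2-/- label (limma adjusted p = 9.8e-07) and 0.49 higher under the wild-type label (limma adjusted p = 0.017). The difference of Psmb8 between those stimuli was 0.74 under the CB2-/- label (limma adjusted p = 7.9e-05) and 0.34 under the wild-type label, where it did not pass the test (limma adjusted p = 0.069). After LPS plus IFN-γ, all 5 inducible genes were higher than after CpG under both labels, by 1.04 (Psmb8) to 2.06 (Psmb10) under the CB2-/- label and by 1.90 (Psme2) to 3.67 (Psmb9) under the wild-type label. In those comparisons with CpG, 11 members were higher and 1 lower under the CB2-/- label, against 6.36% and 3.82% of all genes, and 23 were higher and 7 lower under the wild-type label, against 19.7% and 13.1%. After PolyI:C compared with CpG, Psmb10 was 0.90 higher under the CB2-/- label and 2.80 higher under the wild-type label. Psma6 was 0.98 lower after PolyI:C than after CpG under the CB2-/- label (limma adjusted p = 1.7e-07). In that comparison 4 members were higher and 19 lower under the CB2-/- label, against 6.39% and 5.56% of all genes, and 14 were higher and 4 lower under the wild-type label, against 17.6% and 12.5%.

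**Figure D4:**
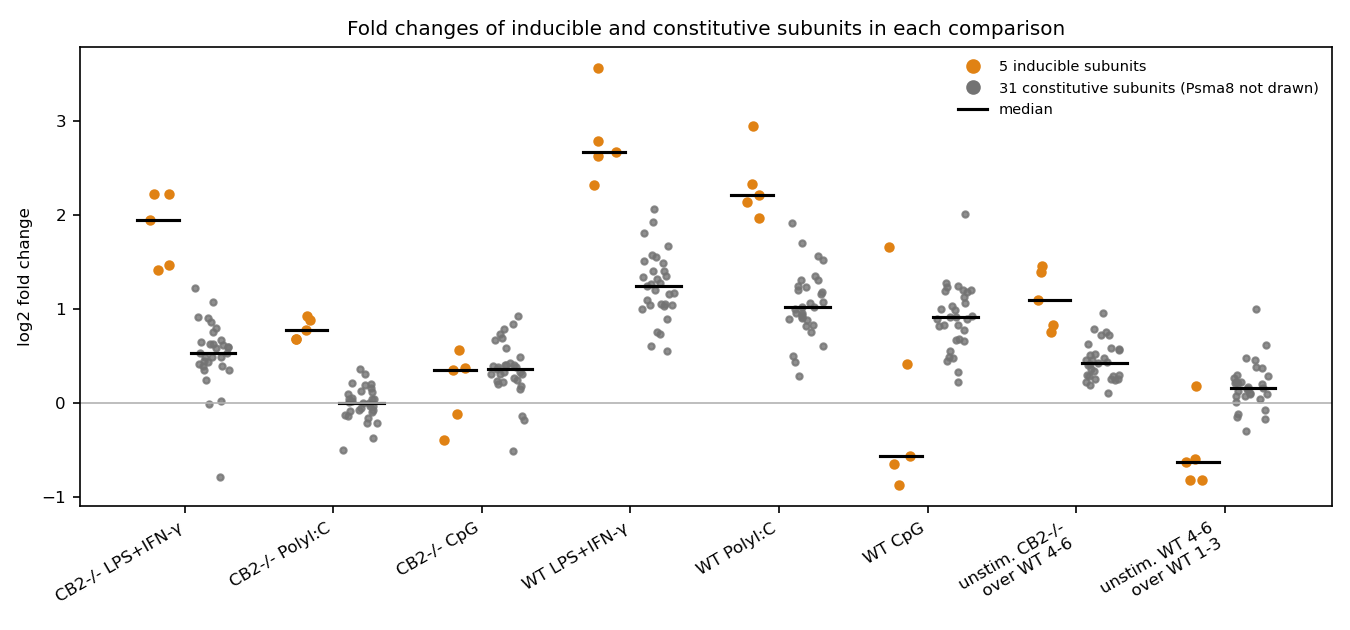
Log2 fold change of each of the 5 inducible genes (orange) and of 31 constitutive subunits (grey, Psma8 not drawn) in 8 comparisons, with the median as a black bar. The inducible medians stand at 1.95 and 0.78 after LPS plus IFN-γ and PolyI:C under the CB2-/- label and at 2.68 and 2.22 under the wild-type label, above the constitutive medians, and at -0.56 after CpG under the wild-type label, below the median of 0.92 over the constitutive subunits drawn.

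Whether the response differed between labels was tested directly, as the response under the CB2-/- label minus that under the wild-type label. After LPS plus IFN-γ, the response of 27 members was lower under the CB2-/- label and that of 0 higher in limma (34 and 0 at an unadjusted p under 0.05), against 8.36% and 3.98% of all genes, 12.3% in all. After PolyI:C it was lower for 38 and higher for 0 (39 and 0 unadjusted), against 13.9% and 10.8%, 24.8% in all. After CpG it was lower for 20 and higher for 1, against 5.66% and 6.11%, 11.8% in all. Without the libraries in which 3 transcripts took over 10% of the total, replicate 1 alone remained after LPS plus IFN-γ under the CB2-/- label. The count of that difference is therefore not given for this alternative. The median differences over the members were -0.65, -1.01 and -0.52 on the log2 scale, beside all-gene medians of -0.02, 0.08 and 0.10.

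Among the inducible genes, the LPS plus IFN-γ response was lower under the CB2-/- label for Psmb8 by 1.26, Psmb10 by 0.69, Psme1 by 0.85 and Psme2 by 1.34 (limma adjusted p = 7.91e-06, 0.0152, 0.000247 and 0.000212). The difference of Psmb9, -0.56 ± 0.26, did not pass the test (limma adjusted p = 0.187). With quantile scaling the differences of Psmb10 and Psme1 were -0.35 and -0.41 and no longer called, and that of Psmb10 was also lost without wild-type replicate 3 (-0.62, limma adjusted p = 0.0502). After PolyI:C the response of all 5 was lower under the CB2-/- label, with differences of -1.66 for Psmb8, -1.29 for Psmb9, -1.36 for Psmb10, -1.28 for Psme1 and -2.07 for Psme2. After CpG, Psme2 differed by -1.10 (limma adjusted p = 0.00202) and Psmb9 by 1.22 in the other direction (limma adjusted p = 0.00287), the single member whose response was higher under the CB2-/- label. The Psmb9 call was lost without the series term (0.81, limma adjusted p = 0.130). The stimulated levels of Psmb8 overlapped between labels, at 5798 to 5873 after LPS plus IFN-γ under the CB2-/- label and 5267 to 6319 under the wild-type label.

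Constitutive subunits differed as well. The LPS plus IFN-γ response was lower under the CB2-/- label for 23 of 32 and the PolyI:C response for 30 of 32, against 8.36% and 13.9% of all genes, with median differences of -0.68 and -1.02. Their mean log2 level under the CB2-/- label was 10.01 after LPS plus IFN-γ, 9.48 after PolyI:C, 9.87 after CpG and 9.55 unstimulated. Under the wild-type label it was 10.07, 9.93 and 9.82 in the same order, and 8.91 in unstimulated replicates 1 to 3. The labels were thus close after LPS plus IFN-γ and CpG and further apart unstimulated. Psmb5, Psmb6 and Psmb7 differed by -0.79, -1.02 and -0.69 after LPS plus IFN-γ and by -0.92, -1.33 and -1.03 after PolyI:C, all past the threshold. The LPS plus IFN-γ difference of Psmb7 was lost without unstimulated replicate 2 of the CB2-/- label or unstimulated replicate 1 or 3 of the wild-type label (-0.64 to -0.63). Psma6 had the largest difference after PolyI:C of the constitutive subunits, -1.97 (limma adjusted p = 2.1e-10), and Psma3 differed by -1.38, -1.68 and -1.42 over the 3 stimuli. Psmd12, a lid subunit, differed by -1.46 after PolyI:C and -0.99 after CpG. Psmd1 differed most after LPS plus IFN-γ and CpG, by -1.69 and -1.72. The change of the inducible minus constitutive value differed by -0.25 after LPS plus IFN-γ, -0.45 after PolyI:C and 0.74 after CpG. After CpG the inducible mean differed by 0.16 and the constitutive mean by -0.58. Taken as a median over members, the 3 differences were -0.66, -0.80 and 0.20.

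Unstimulated cells of the second library series differed by label before any stimulus, although label and run of library numbers are the same split there. All 5 inducible genes were higher under the CB2-/- label: Psmb8 had 2023, 2336 and 2209 normalised counts in libraries labelled CB2-/-, against 875, 1145 and 1056 in wild-type replicates 4 to 6, and Psmb9 had 469, 668 and 572 against 202, 201 and 209. Psmb10 had 534, 612 and 615 against 282, 332 and 381, and Psme1 had 1172, 1164 and 994 against 617, 690.0 and 662. Psme2 had 1327, 1168 and 1163 in libraries labelled CB2-/-, against 566, 389 and 445 in wild-type replicates 4 to 6. None of these groups overlapped. The log2 differences were 1.10 for Psmb8, 1.46 for Psmb9, 0.83 for Psmb10, 0.76 for Psme1 and 1.40 for Psme2 (limma adjusted p = 4.36e-07, 6.18e-06, 0.000149, 1.92e-05 and 1.63e-06). The difference of Psmb10 was 0.42 and not called without the series term (limma adjusted p = 0.136). Wild-type unstimulated replicates 1 to 3 belong to the first series. Against them, libraries labelled CB2-/- overlapped in Psmb10 and Psme1 and were higher in Psmb8, Psmb9 and Psme2. The inducible minus constitutive value averaged 0.41 under the CB2-/- label, -0.26 in wild-type replicates 4 to 6 and 0.48 in replicates 1 to 3.

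In that comparison 26 of 49 members were higher under the CB2-/- label and 0 lower in limma (36 and 0 at an unadjusted p under 0.05), against 6.25% and 3.65% of all genes, 9.9% in all, with a median of 0.42 beside -0.05 over all genes. Psma3 (0.96), Psmd14, the deubiquitinase of the lid (0.79), Psmd12 (0.76) and Psmb5 (0.72) were among the constitutive subunits that were higher, 20 of 32 in all. The count was 17 without unstimulated replicate 2 of the CB2-/- label and 13 when the other groups were left out of the fit. In that last fit Psma3 and Psmd12 lost their call (limma adjusted p = 0.0957 and 0.0539). Without the libraries in which the 3 transcripts took over 10% of the total, replicate 4 alone remained under the wild-type label. The log2 differences were then 0.71 for Psma3, 0.69 for Psmd14 and 0.40 for Psmd12, and calls are not read. Markers of other cells also differed here: the mean log2 level of the fibroblast list was 2.57 to 3.45 under the CB2-/- label against 6.02 to 7.47 in wild-type replicates 4 to 6, and that of the astrocyte list was 3.79 to 4.45 under the CB2-/- label against 6.64 to 7.15 in those wild-type replicates. Over all 27 libraries each of the 6 fibroblast genes was at 0 in 1 (Col1a2) to 11 (Lum), and the 7 astrocyte genes were at 0 in 0 (Slc1a2, Slc1a3 and Gja1) to 11 (S100b). Their part in the result was not tested.

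The 2 sets of unstimulated wild-type libraries show how far the genes differed between library series within this label, without a stimulus. The sets differed in other ways too. The astrocyte list averaged 6.64 to 7.15 in replicates 4 to 6 and 3.21 to 6.06 in replicates 1 to 3 (log2 scale), while the fibroblast list overlapped. Mitochondrial genes took 0.763 to 1.42% of a library's total in replicates 4 to 6 and 3.08 to 3.20% in replicates 1 to 3. What part these differences had was not tested. Replicates 4 to 6 were lower than replicates 1 to 3 in Psmb9 by 0.82, Psmb10 by 0.82, Psme1 by 0.60 and Psme2 by 0.63 on the log2 scale (limma adjusted p = 0.0039, 0.000129, 0.000302 and 0.0097), and Psmb8 differed by 0.18 without passing the test. In all, 6 members were higher and 4 lower, against 6.33% and 5.66% of all genes. The inducible minus constitutive value was -0.26 ± 0.07 in replicates 4 to 6 and 0.48 ± 0.09 in replicates 1 to 3 (SD, n = 3 each). The fall of this value after CpG under the wild-type label, -0.90, is thus close in size to the -0.74 between unstimulated sets of the same label.

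Other genes of the pathway were taken from lists of maturation and cap factors, transcription factors, ubiquitin genes and peptide loading genes. Of 10 maturation and cap genes, 4 rose after LPS plus IFN-γ under the CB2-/- label and 7 under the wild-type label, beside 12.8% and 21.7% of all genes, with 0 falling in limma or at an unadjusted p under 0.05. Pomp, the maturation protein needed to close the core, had 1126, 1089.6 and 1082 normalised counts after LPS plus IFN-γ against 692, 748 and 694 unstimulated under the CB2-/- label, and 1655, 1766 and 1698 against 664, 759 and 749.8 under the wild-type label. It rose by 0.63 and 1.24, and its CpG changes of 0.03 and 0.05 did not pass the test. Adrm1, a ubiquitin receptor of the cap, rose by 0.69 and 1.32 after LPS plus IFN-γ and by 0.58 and 1.16 after CpG.

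Of 12 genes of transcriptional control, 8 rose and 1 fell after LPS plus IFN-γ under each label, beside 12.8% and 10.9% of all genes under the CB2-/- label and 21.7% and 18% under the wild-type label. After CpG 2 rose and 2 fell under the CB2-/- label, beside 6.82% and 7.44% of all genes, and 1 rose and 8 fell under the wild-type label, beside 16.5% and 19.6%. Irf1, an interferon-induced factor that binds immunoproteasome promoters, had 7492, 7783 and 8053 normalised counts after LPS plus IFN-γ against 323, 409 and 476 unstimulated under the CB2-/- label. Wild-type libraries had 11715, 11727 and 12293 against 488, 341 and 619. These are log2 rises of 4.29 and 4.66. After PolyI:C it rose by 1.47 under the CB2-/- label and 1.94 under the wild-type label, and after CpG it changed by 0.28, which did not pass the test, and fell by 1.39 under the wild-type label. Nlrc5, the transactivator of MHC class I genes, rose by 2.86 and 3.15 after LPS plus IFN-γ. Nfe2l1 (NRF1), the factor that raises proteasome subunits when proteolysis is short, rose by 0.55 and 1.58 after LPS plus IFN-γ and by 0.53 and 1.15 after CpG, while its change of 0.13 after PolyI:C under the CB2-/- label did not pass the test and it rose by 1.46 under the wild-type label.

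Of 10 peptide loading genes, 7 rose after LPS plus IFN-γ under each label and 0 fell, beside 12.8% higher and 10.9% lower over all genes under the CB2-/- label and 21.7% and 18% under the wild-type label. After CpG 1 rose and 0 fell under the CB2-/- label, beside 6.82% and 7.44%, and 1 rose and 3 fell under the wild-type label, beside 16.5% and 19.6%. At an unadjusted p under 0.05 in limma, 1 was lower after LPS plus IFN-γ and 3 after CpG under the CB2-/- label. Tap1, the neighbour of Psmb8 and Psmb9, rose by 2.15 under the CB2-/- label and 3.99 under the wild-type label after LPS plus IFN-γ, and by 1.09 and 3.24 after PolyI:C. After CpG it rose by 0.75 under the CB2-/- label, and its wild-type change of 0.39 did not pass the test. Tapbp and Tapbpl, which load peptides onto class I molecules, fell by 1.04 and 1.33 after CpG under the wild-type label. Of 17 ubiquitin genes, 8 rose and 2 fell after LPS plus IFN-γ under the CB2-/- label, beside 12.8% and 10.9% of all genes, and 12 rose and 3 fell under the wild-type label, beside 21.7% and 18%. The falls are near the background. Ube2l6, the enzyme that conjugates ISG15, rose by 1.22 and 3.02 and fell by 0.61 and 1.24 after CpG. Ubd, which encodes the ubiquitin-like modifier FAT10, had 33.3, 62.2 and 46.5 normalised counts after LPS plus IFN-γ under the CB2-/- label and 51.7, 51.2 and 42.1 under the wild-type label, and was listed at 0 in all 9 unstimulated libraries.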

How the data were processed

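RNA of 27 libraries was measured with 75-bp single-end reads. Per the labels' protocols, libraries were made with TruSeq v2 or, at low input, SMART-Seq2, without saying which library had which. The authors deposited normalised counts, a signal that is never negative, made, per the submitters' processing notes, with kallisto, DESeq2 and CASAVA 1.8, with no role or order stated; the genome build is not given in the sources used here. Also deposited by the authors was a batch-corrected table on a log2 scale, a score used as an alternative. Between 45.9 and 67.7% of a library's low values came out whole when divided by its smallest repeated step (tolerance 0.01), so whole reads were not recovered, no count test was run and depth in reads is unknown.

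Values were taken as log2(value + 1). Genes with at least 10 in at least 3 libraries were fitted in limma 3.58.1 (R 4.3.3) with group and library series and a variance trend. Tests were 2-sided, with Benjamini-Hochberg adjustment over 14668 genes and a threshold of 0.05. The fit was also run on simulated counts with a single setting of spread and no library series. That run does not check error rates in these data. A fold change on this scale understates that of low genes. Tables and figures were made with Python 3.11.15, pandas 2.3.3, numpy 2.4.6 and matplotlib 3.10.9. Positions are GENCODE M21 (GRCm38), matched by ID for 23933 of 23995 genes and all 49 members, and promoters are RefSeq. The members and lists were chosen with earlier results of these data known. Named were the inducible genes, Psmb5 to Psmb7, Psme3, Psme4, the 3 highest and 3 lowest other called members per comparison, the highest and lowest per subcomplex, low-count members, 6 fixed pathway genes and up to 4 with the largest wild-type LPS plus IFN-γ changes in each pathway list. Psmg1 in the wild-type CpG comparison was named after its values were seen. Alternatives covered scaling, filter, pseudocount, library weights, fold threshold, series term, the corrected table and single libraries left out.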

Additional observations from a re-analysis of the deposited data

Results flagged for a closer look

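Psmb1 was low in wild-type unstimulated replicate 1, at 611.858 normalised counts, against 728.91 to 785.27 in the 5 other wild-type unstimulated libraries. The gap was 0.675 of the range, and chance gives such a gap in about 1 in 20 groups. All 49 members were screened for the highest and the lowest library, so such gaps can arise by chance over the screen. The libraries screened also mix both library series.

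Responses that differed between labels, by the test of the difference itself, numbered 27 members after LPS plus IFN-γ, 38 after PolyI:C and 21 after CpG. Over all genes, 12.3%, 24.8% and 11.8% differed, in the same order. After LPS plus IFN-γ the differences (CB2-/- label minus wild-type label, log2) were -1.26 for Psmb8, -0.69 for Psmb10, -0.85 for Psme1, -1.34 for Psme2, -0.79 for Psmb5, -1.02 for Psmb6 and -0.69 for Psmb7. After PolyI:C they were -1.66 for Psmb8, -1.29 for Psmb9, -1.36 for Psmb10, -1.28 for Psme1, -2.07 for Psme2, -0.92 for Psmb5, -1.33 for Psmb6, -1.03 for Psmb7, -1.03 for Psme3 and -0.92 for Psme4. After CpG they were 1.22 for Psmb9, -1.10 for Psme2, -0.58 for Psmb5, -0.63 for Psmb7 and -0.77 for Psme3. Label and library series cannot be told apart in these differences.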

How the results depend on the processing

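No called result of a named gene changed direction under the alternatives run, while 9 log2 changes that had not passed the test changed sign under at least 1 of them. Of 112 called results of named genes, 60 lost their call under at least 1 alternative, 59 of them under a test against a fold of 1.5. That test left 9, 0 and 1 members called after LPS plus IFN-γ, PolyI:C and CpG under the CB2-/- label, 21 after CpG under the wild-type label, 2, 16 and 2 in the differences of response after LPS plus IFN-γ, PolyI:C and CpG, and 3 between unstimulated labels. Without libraries in which 3 transcripts took over 10% of the total (chosen after seeing the data, fewer libraries), the counts were 19, 4 and 12 under the CB2-/- label, 15 for the difference after LPS plus IFN-γ and 7 between unstimulated labels. Library weights gave 32 after CpG under the CB2-/- label; the batch-corrected table gave 11 after PolyI:C under that label and 41 between unstimulated labels; fitting only the compared libraries gave 13 between unstimulated labels. With single libraries left out, the count between unstimulated labels ran from 17 to 25; the report names the libraries behind lost calls, except the CpG differences of Psmb7, Psme3 and Psmg2 and the unstimulated differences of Psme3 and Psmb7, each lost without at least 1 single library. The inducible minus constitutive change, taken as a median over members, was 0.89, 0.65 and -0.77 after LPS plus IFN-γ, PolyI:C and CpG under the CB2-/- label and 1.45 after PolyI:C under the wild-type label, and without Psma8 (chosen after seeing the data) it was 1.33 after LPS plus IFN-γ under the CB2-/- label. The cause of these shifts was not tested. The share of all genes called under each alternative is not given. Member counts under alternatives, here and above, therefore stand without a background and do not single out this module. Quantile scaling shifted the all-gene median by -0.11 after LPS plus IFN-γ and 0.14 after CpG under the wild-type label, by -0.12 in the CpG difference, and by -0.28 and -0.15 where LPS plus IFN-γ and PolyI:C were compared with CpG under that label. The labels carry no replicate numbers, so no paired analysis was possible. Replicate numbers in this report were given in the order of the samples.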
